A study of Rattus norvegicus with 8 samples.

Results

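The 10 genes described here encode transcription factors and cofactors that set the state of vascular smooth muscle cells (VSMCs): Myocd, Srf, Klf4, Klf5, Mef2c, Elk1, Tcf21, Gata6, Twist1 and Foxo4. They were found by symbol, without regard to case, among the 37209 genes of the count table, and all 10 had a row. mRNA was sequenced from the carotid arteries of male Sprague-Dawley rats. In the injured group (n = 4), the left carotid artery had been injured at the intima with a balloon catheter and was harvested 2 weeks later. In the control group (n = 4), the artery was the undamaged right carotid, which the study describes as the self-control, so the control arteries are from operated animals and not from untouched ones. The labels name no transgene and, beyond isoflurane for the surgery, no drug for either group, and they give no age. Whole arteries were sequenced. For every gene below, a change in the number of cells of a type and one in RNA per cell cannot be told apart.

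Mature VSMCs are quiescent and contract, and after arterial injury they can lose their contractile proteins, divide, migrate and secrete matrix, a change known as phenotypic switching. Much of the contractile programme runs through serum response factor (Srf), which binds a short DNA element called the CArG box. Srf does little for these genes alone. With the coactivator myocardin (Myocd) it switches on contractile genes, and with ternary complex factors such as Elk1 it switches on growth-responsive immediate early genes, and both partners compete for the same surface of Srf. Klf4 and Foxo4 are known to restrain myocardin and its targets, whereas Klf5, the zinc finger factor once called BTEB2, is known from activated VSMCs and neointima.

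Srf is known as one of its own targets, and its promoter is shown for the element that Srf binds. Promoter sequences (250 bases before to 50 after the gene start, RefSeq, GRCr8) were at hand for 8 of the 10 genes, all but Myocd and Mef2c, and for 13 of 17 contractile genes. The CArG box was searched as CC, then 6 letters that are each A or T, then GG, which reads the same on both strands. It was in 1.64% of the 33469 promoters, and Srf was the only one of the 8 with it, while 0 of the 13 contractile promoters held it. The lines below show both boxes of Srf in capitals, followed by the pair of elements before Acta2, the gene of smooth muscle actin, each of which has 1 G or C among the 6 middle letters. Elements with at most 1 such letter were in 9.42% of all promoters, and Acta2 was the only one of the 13 contractile genes with any.
Srf, chr9:21923987-21924012, plus strand, box starting 81 bases before the gene: ggggctcgCCATATAAGGagcggcct
Srf, chr9:21924007-21924032, plus strand, box starting 61 bases before the gene: cggcctcgCCATAAAAGGaaacattg
Acta2, chr1:241172620-241172645, minus strand, element starting 134 bases before the gene: gctgaggtCCCTATATGGttgtgtta
Acta2, chr1:241172570-241172595, minus strand, element starting 84 bases before the gene: tctttgctCCTTGTTTGGgaagcgag
The GC box, GGGCGG or its complement CCGCCC, which zinc finger factors such as Sp1 bind, was in 33.1% of all promoters. It was found in those of Srf, Gata6, Elk1 and Twist1, and Twist1, one of 2 with a pair of boxes beside Elk1, is shown because its level could be measured.
Twist1, chr6:56402109-56402134, plus strand, box starting 190 bases before the gene: cccaaactttCCGCCCgcacggaggt
Twist1, chr6:56402283-56402308, plus strand, box starting 16 bases before the gene: gtcccctcccCCGCCCgcctccctcc
These letters are descriptions of the reference sequence and not measured binding sites, and a promoter without them says nothing about the factor.

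The libraries held 13470754 to 15276952 counts in the control arteries and 11459632 to 16658089 in the injured arteries. Levels are given as CPM, counts per 1000000 of the library size as corrected by the TMM factors of edgeR, and 3 counts, the smallest level read as detected, were 0.169 to 0.246 CPM, for counting error only. Control artery 4 stood apart from the other controls, with a correlation of log2 CPM across genes of 0.83 to 0.852 with them against 0.976 to 0.978 among them. The summed CPM of 8 sympathetic neuron markers was 6305 in it and 11.5 to 17.4 in the other controls, and that of the 17 contractile genes was 26080 against 56090 to 74040. Calls and fold changes are therefore also given without control artery 4. Among the injured arteries, artery 3 had the highest sum of the neuron markers, 1066 CPM, and the lowest sum of the contractile genes, 17220 CPM. The extraction text attached to the libraries names prefrontal cortex, while all other labels name the carotid artery, and Acta2 was at 4110 to 15470 CPM in all 8 libraries. A gene was called at an FDR under 0.05, by Benjamini-Hochberg adjustment over all genes tested with edgeR's quasi-likelihood test, together with a fold change above 2.

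Of the 10 factors, 7 had enough counts for the test, and 2 of these were differentially expressed. Klf5 was higher and Myocd was lower in the injured arteries, while Srf, Klf4, Mef2c, Gata6 and Twist1 were not called. Over all 14359 genes tested, 10.9% were called, 8.31% higher and 2.57% lower. Without control artery 4, 8 factors were tested and 3 were called, Klf5 and Tcf21 higher and Myocd lower, against 16.2% of the genes tested, 12.3% higher and 3.94% lower. Tcf21 met the count filter of that fit only through the injured arteries, so its call there is not independent of the filter. By FDR alone, 2 factors passed with all arteries, against 17.2% of all genes, 10.8% higher and 6.39% lower. DESeq2 also called 2, Klf5 higher and Myocd lower, against 13.1%. Only Klf5 of the 7 had levels that did not overlap between the groups, which was so for 23.7% of all genes tested.

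**Figure D1:**
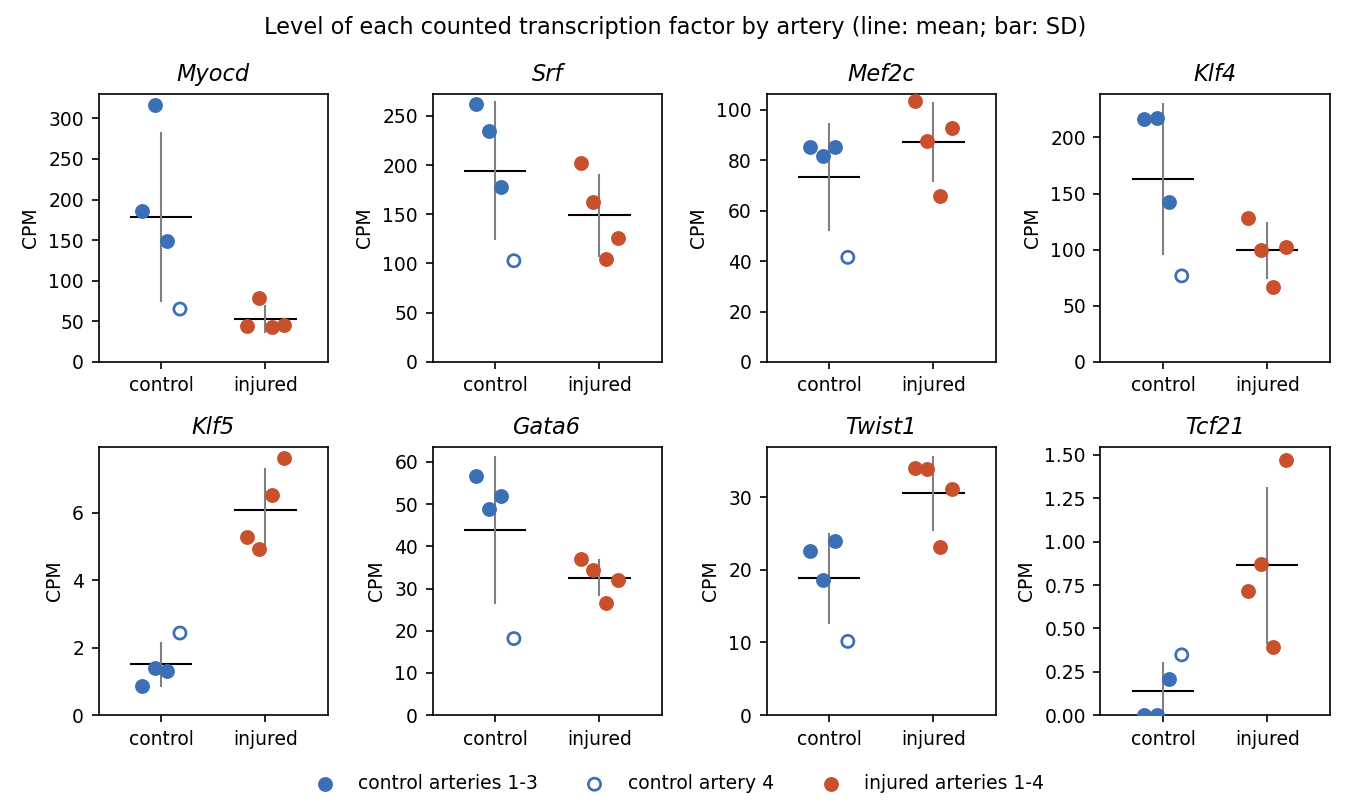
The level of each counted factor is plotted by artery, with CPM on a linear axis that starts at 0, a line for the mean and a bar for the SD of 4 arteries, and control artery 4 as an open circle. Klf5 is higher in every injured artery (4.93 to 7.61 CPM) than in any control (0.864 to 2.43 CPM), and control artery 4 is the lowest control for Myocd, Srf, Mef2c, Klf4, Gata6 and Twist1.

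Myocardin is the coactivator that gives Srf its hold on contractile genes. Myocd was at 186, 317, 149 and 65.1 CPM in control arteries 1 to 4 and at 44.4, 78.8, 42.7 and 45.6 CPM in injured arteries 1 to 4. All injured arteries lay below control arteries 1 to 3, and injured artery 2 lay above control artery 4, so the groups overlapped. The mean was 179 ± 105 CPM (SD, n = 4) in the controls and 52.9 ± 17.3 CPM (SD, n = 4) after injury. The log2 fold change was -1.76 (standard error, SE, 0.45, edgeR adjusted p = 0.0319), and 1.77% of all genes tested had a lower value. On log2 CPM, the two-sided exact permutation p was 0.0571, where 4 arteries against 4 allow at best 0.0286. Leaving out control artery 4 gave -2.04 (edgeR adjusted p = 0.00245). The call depended on single arteries, since the edgeR adjusted p became 0.0694, 0.0704 and 0.0594 without control arteries 1, 2 and 3 and 0.0883, 0.0724 and 0.103 without injured arteries 1, 3 and 4.

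Serum response factor is the DNA-binding partner of myocardin. Srf was at 262, 235, 178 and 103 CPM in control arteries 1 to 4 and at 202, 162, 105 and 126 CPM in injured arteries 1 to 4. The values of both groups ran into each other, with control artery 4 the lowest of all 8. The log2 fold change was -0.39 (SE 0.32, edgeR adjusted p = 0.45), and without control artery 4 it was -0.60 (edgeR adjusted p = 0.0855). Mef2c, a factor of the same MADS-box family that acts in muscle and endothelial development, had 85.4, 81.7, 85.3 and 41.5 CPM in control arteries 1 to 4. In injured arteries 1 to 4 it had 103, 87.7, 65.7 and 92.8 CPM, so injured artery 3 was below and the other injured arteries were above the highest 3 controls. Its log2 fold change was 0.25 (SE 0.25, edgeR adjusted p = 0.537) and 0.05 without control artery 4. Mef2c is not a VSMC gene alone, and macrophages and skeletal muscle are known to express it. The summed CPM of 6 macrophage markers was 160 to 249 in the controls and 1538 to 2377 after injury, and that of 9 skeletal muscle markers was 83.7 to 252 and 285 to 1019, with Myog and Myod1 at 0 counts in every control. The part of these cells in the level of Mef2c was not tested.

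Klf4 and Klf5 are zinc finger factors of 1 family, which are both linked to VSMC switching and are often described with opposite effects on growth. Klf4 was at 217, 217, 143 and 76.7 CPM in control arteries 1 to 4 and at 129, 99.4, 66.9 and 103 CPM in injured arteries 1 to 4. All injured arteries lay below control arteries 1 to 3, and 3 of the 4 lay above control artery 4. The log2 fold change of Klf4 was -0.72 (SE 0.34, edgeR adjusted p = 0.199). Without control artery 4 it was -0.96 (edgeR adjusted p = 0.017), which passed the FDR, as did 29.9% of the genes in that fit, and not the fold change of 2. Klf5 had few counts, 12 to 35 in the control and 68 to 116 in the injured libraries. It was at 0.864, 1.39, 1.32 and 2.43 CPM in control arteries 1 to 4 and at 5.26, 4.93, 6.51 and 7.61 CPM in injured arteries 1 to 4. Every injured artery exceeded every control, control artery 4 included. Its mean level was 1.50 ± 0.663 CPM (SD, n = 4) in the controls and 6.08 ± 1.23 CPM (SD, n = 4) after injury, and the log2 fold change was 2.01 (SE 0.34, edgeR adjusted p = 0.00579). On log2 CPM, the exact permutation p (two-sided) was 0.0286, the smallest p this design allows. Klf5 was called in all 8 fits that each left out one artery, with a log2 fold change of 1.81 to 2.34. Which cells of the artery carried the Klf5 counts was not tested.

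Gata6 is a factor of quiescent VSMCs that is known to fall when they enter the cell cycle in culture. It was at 56.8, 48.9, 51.9 and 18.1 CPM in control arteries 1 to 4 and at 36.9, 34.5, 26.6 and 32.1 CPM in injured arteries 1 to 4. The injured arteries lay between control artery 4 and the other controls. The log2 fold change was -0.43 (SE 0.32, edgeR adjusted p = 0.406). Without control artery 4 it was -0.70 (edgeR adjusted p = 0.00586), past the FDR and under the fold change of 2. Twist1 and Tcf21 are basic helix-loop-helix factors of mesenchymal cells, and Tcf21 marks the lineage of adventitial and coronary fibroblasts and VSMCs. Twist1 was at 22.6, 18.5, 24 and 10.2 CPM in control arteries 1 to 4 and at 34, 33.8, 23.1 and 31.2 CPM in injured arteries 1 to 4. Only injured artery 3 was within the range of the controls. The log2 fold change of Twist1 was 0.70 (SE 0.27, edgeR adjusted p = 0.121) and 0.49 without control artery 4 (edgeR adjusted p = 0.0608), and neither was called.

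Tcf21 was near the limit of detection. It had 0, 0, 3 and 5 counts in control arteries 1 to 4 and 12, 12, 7 and 18 counts in injured arteries 1 to 4, at most 0.348 CPM in a control and at least 0.393 CPM after injury. Both groups were thus separate by only 2 counts. It was too low for the edgeR test of all 8 arteries, and DESeq2 gave an adjusted p of 0.0512. Without control artery 4, when the filter asks for counts in fewer libraries, the edgeR test called it higher, with a log2 fold change of 3.39 (SE 0.97, edgeR adjusted p = 0.0324), a value that rests on control arteries with 0, 0 and 3 counts. Its counts in the injured arteries alone carried it past that filter, so this call is no support for a change. The summed CPM of 7 fibroblast markers was 2518 in control artery 4, 4572 to 5275 in the other controls and 2686 to 4475 after injury. Single fibroblast markers went both ways, with Dpt called higher at 2.03 and Dcn and Pi16 called lower at -1.15 and -1.56.

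Elk1 and Foxo4 were listed with 0 counts in all 8 libraries, and this is not a measurement of these genes. Both lie on chromosome X, and of the 609 protein-coding genes of the table that the RefSeq annotation of GRCr8 places there, 595 (97.7%) had 0 counts in every library, against 9.63% of 16023 genes on the autosomes. Among those 595 were Flna, Pgk1 and Hprt1, which nearly all cells express. No level, floor or fold change is given for Elk1 and Foxo4, and the balance of Elk1 and Myocd on Srf, which was to be taken from their ratio, could not be computed.

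**Figure D2:**
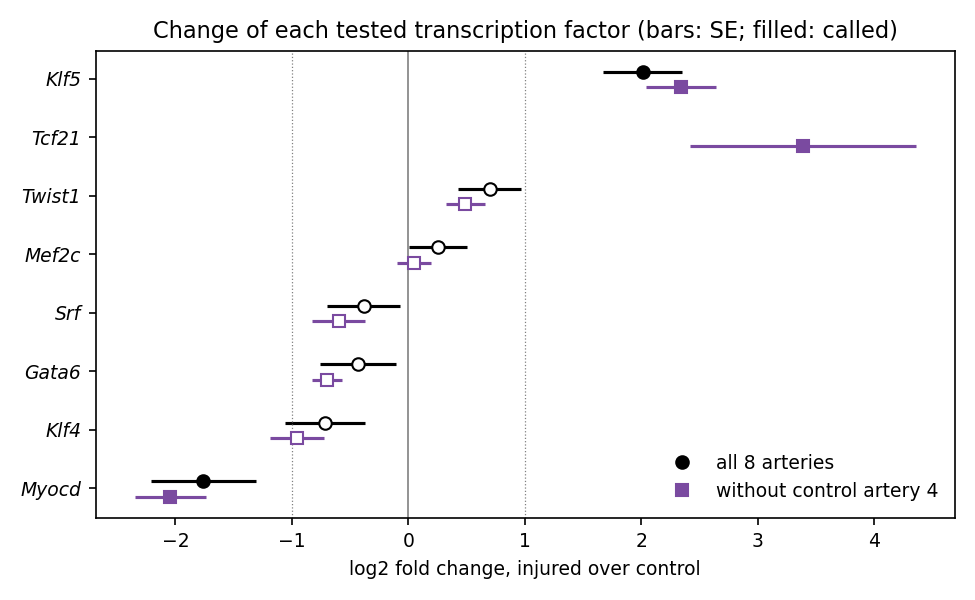
The log2 fold change (injured over control, x axis) of each tested factor with its standard error is plotted for all 8 arteries and without control artery 4, with filled symbols for called factors and dotted lines at a fold change of 2. Klf5 and Myocd are filled in both, at 2.01 and 2.34 for Klf5 and at -1.76 and -2.04 for Myocd. Tcf21 could be tested only without control artery 4, and met the filter there only through the injured arteries.

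A ratio of 2 genes within one library does not depend on how the libraries are scaled to each other. In log2 of the count ratio, Klf5 to Klf4 lay at -7.91, -7.24, -6.72 and -4.96 in control arteries 1 to 4 and at -4.60, -4.32, -3.36 and -3.75 in injured arteries 1 to 4. Every injured artery had a higher ratio than any control, with control artery 4 the nearest control. All values were below 0, so Klf5 stayed under Klf4 in every library. The difference of the means was 2.70 (exact permutation test, two-sided, p = 0.0286, adjusted over the 3 ratios 0.0429). Klf5 had a log2 fold change of 2.01 and Klf4, not called, one of -0.72, so this ratio mostly restates the rise of Klf5. The share of all gene pairs that separate in this way was not counted. Klf4 to Myocd lay at 0.22, -0.54, -0.06 and 0.24 in control arteries 1 to 4 and at 1.53, 0.34, 0.65 and 1.17 in injured arteries 1 to 4. The ratio was higher in every injured artery than in any control, by a difference of the means of 0.96 (exact permutation test, two-sided, p = 0.0286, adjusted 0.0429). The log2 fold changes were -0.72 for Klf4, not called, and -1.76 for Myocd, so the ratio restates the larger fall of Myocd. Control artery 4 lay close to control artery 1 in this ratio, and without it the differences were 3.28 and 1.05.

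Of the 17 contractile genes taken as targets of Srf and myocardin, 10 were lower in the injured arteries, 7 were not called and 0 were higher, against 2.57% of all genes called lower. The median log2 fold change was -1.32, beside -0.06 over all genes tested. The lowest called values were those of Synpo2, an actin-bundling protein, at -1.83, Actg2, smooth muscle gamma actin, at -1.82, and Myh11, the smooth muscle myosin heavy chain, at -1.72. The called values nearest to 0 were those of Mylk, myosin light chain kinase, at -1.27, Itga8 at -1.32 and Acta2 at -1.34. Of the 17, 14 had an unadjusted p under 0.05, each of them lower, and DESeq2 called 12 lower and 0 higher. The number called was 13 without control artery 4 and 5 without any one of control arteries 1, 2 and 3. It was 6, 3, 5 and 2 without injured arteries 1, 2, 3 and 4, and 3 with the replicate number as a block.

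Myocd was set against these genes in each library, as log2 of its count minus the mean log2 count of the 17. The values were -3.60, -2.69, -3.56 and -3.65 in control arteries 1 to 4 and -4.29, -3.33, -3.78 and -4.05 in injured arteries 1 to 4. The groups overlapped, because injured artery 2 was above 3 of the controls, and on this scale control artery 4 was next to control arteries 1 and 3. The difference of the means was -0.49 (exact permutation test, two-sided, p = 0.2, adjusted 0.2), so that the test of 4 arteries against 4 did not detect a change of Myocd beyond that of the contractile genes. Of the 71 genes in the lists of targets, relatives and partners that were tested, those with a log2 CPM most like that of Myocd over the 8 arteries were Actg2, with a Pearson correlation of 0.965, and Acta2, with 0.946. These correlations describe the arteries, which share the injury contrast.

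The other factors were set against the contractile genes in the same way. Relative to the mean of the 17, Srf lay at -3.30 to -2.99 in the controls and at -2.58 to -2.11 after injury, and Klf4 at -3.62 to -3.23 and -3.13 to -2.76. Mef2c lay at -4.72 to -4.30 and -3.17 to -3.03, Gata6 at -5.49 to -5.07 and -4.56 to -4.46, and Twist1 at -6.78 to -6.19 and -4.68 to -4.55. None of these overlapped between the groups, and control artery 4 lay within or next to the range of the other controls. The share of all genes that separate on this scale was not counted, so the separation is no result about these factors. Klf5 lay at -11.3 to -10.3 in control arteries 1 to 3, at -8.38 in control artery 4 and at -7.37 to -6.49 after injury. A factor that falls by less than the contractile genes, or that rises itself, has to rise on this scale. For Srf, Klf4 and Gata6, these values restate the fall of the contractile genes. Klf5 at 2.01, called, and Twist1 at 0.70 and Mef2c at 0.25, not called, had log2 fold changes above 0. For these the values hold that change together with the fall of the contractile genes. All are given with no test.

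**Figure D3:**
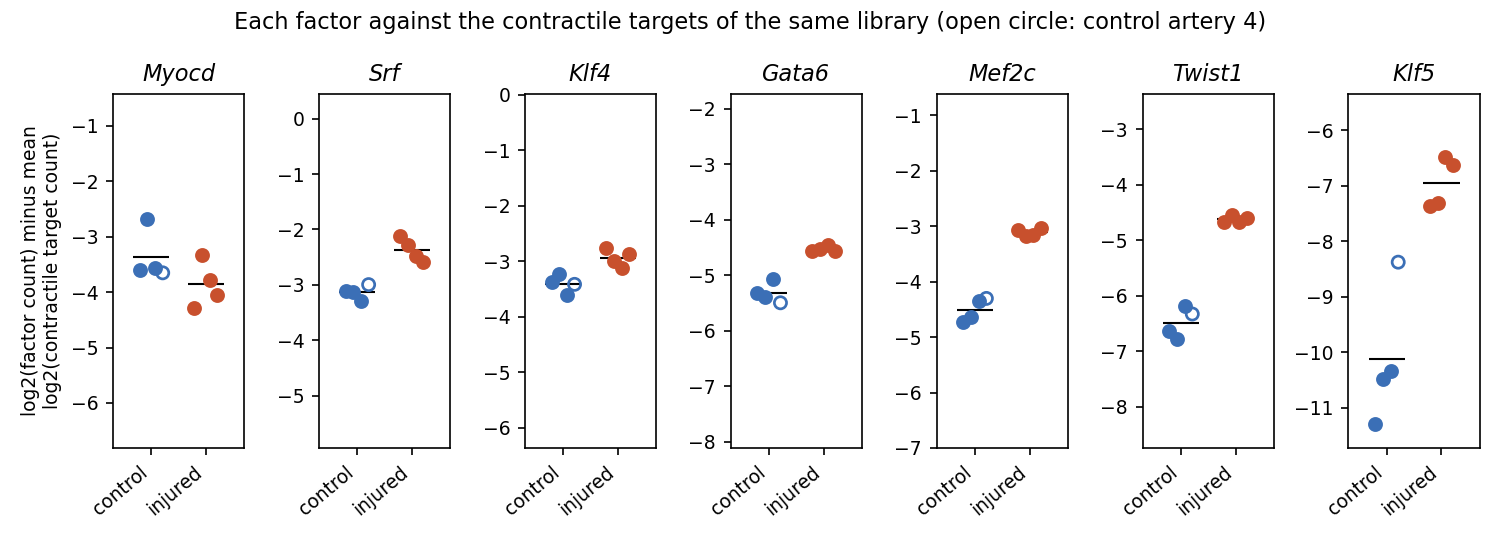
For 7 factors, log2 of the count minus the mean log2 count of the 17 contractile genes in the same library is plotted by group, with a line for the mean, an open circle for control artery 4, and y axes of equal span. The values of Myocd overlap, and the injured arteries lie above all controls for Srf, Klf4, Gata6, Mef2c, Twist1 and Klf5. The share of all genes that separate on this scale was not counted.

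The other branch of Srf is that of the immediate early genes. Of 10 such genes, 0 passed with edgeR or with DESeq2, and 1 had an unadjusted p under 0.05 in edgeR's test, in the higher direction. The largest log2 fold changes were those of Egr2 at 1.31 and Junb at 0.80, and the smallest those of Fosb at -2.38 and Egr1 at -1.59. Their standard errors were 1.12 for Fosb and 0.96 for Egr1, and neither passed the test (edgeR adjusted p = 0.194 and 0.306). With the replicate number as a block, Fosb at -2.73 and Dusp1 at -1.47 were called lower (edgeR adjusted p = 0.0141 and 0.027). Of 12 genes of the synthetic VSMC state, 3 were called, each higher, against 8.31% of all genes, and the median of the list was 0.46. DESeq2 called 3 higher and 2 lower, and the fit without control artery 4 called 2 in each direction. The 3 genes called with all 8 arteries were Spp1 (osteopontin) at 1.55, Lgals3 (galectin-3) at 1.10 and Pdgfa at 1.07. Macrophages also express Lgals3, and Pdgfa is a growth factor for VSMCs that Klf5 is known to induce. In the fit without control artery 4, Pdgfa was at 0.97 and was no longer called, while Tnfrsf11b was called lower, at -1.73. The 3 calls became 1 without injured artery 2 and also 1 without injured artery 4. Myh10, the nonmuscle myosin known as a Klf5 target and picked for naming after its value was seen, was at -0.13 (edgeR adjusted p = 0.714).

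Of 18 relatives of the 10 factors, 16 were tested, 1 was higher and 2 were lower, against 8.31% and 2.57% of all genes, with a median log2 fold change of -0.11. Elk3, a ternary complex factor related to Elk1, rose by 1.02 (SE 0.13, edgeR adjusted p = 0.00204). It was at 58 to 70 CPM in the controls and at 118 to 163 CPM after injury. The groups did not overlap, as for 23.7% of all genes tested. Its fold change was just above 2, and without control artery 4 it was at 0.96 and not called, and DESeq2 called 0 relatives higher. Of the 71 genes compared, Elk3 was the most like Klf5 in log2 CPM over the 8 arteries, with a Pearson correlation of 0.903, followed by Lgals3 with 0.853. Klf15, a relative of Klf4 and Klf5 in quiescent muscle, was at -1.25 (edgeR adjusted p = 0.00433), and Twist2, the closest relative of Twist1, was at -1.40 (edgeR adjusted p = 0.0361). The number of relatives called lower was 1 without control artery 1, 2 or 3 and without injured artery 2, 3 or 4, and the number called higher was 0 without control artery 4 or injured artery 4. The myocardin-related coactivators Mkl1 and Mkl2, named after their values were seen, were at 0.15 and 0.33 and were not called.

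Of 17 cofactors and partners, 16 were tested, 1 was higher and 1 was lower, near the share of all genes called, 10.9%, with a median of -0.05. Fhl2, a LIM protein that binds Srf, was at 1.03 (edgeR adjusted p = 0.0313), and Csrp1, a LIM protein of smooth muscle that bridges Srf and Gata factors, was at -1.34 (edgeR adjusted p = 0.0137). Without control artery 4 both were called, Fhl2 at 1.01 and Csrp1 at -1.55. The number called was 1 without control artery 1 or 3, 0 without injured artery 2 or 4, and 0 with the replicate number as a block.

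**Figure D4:**
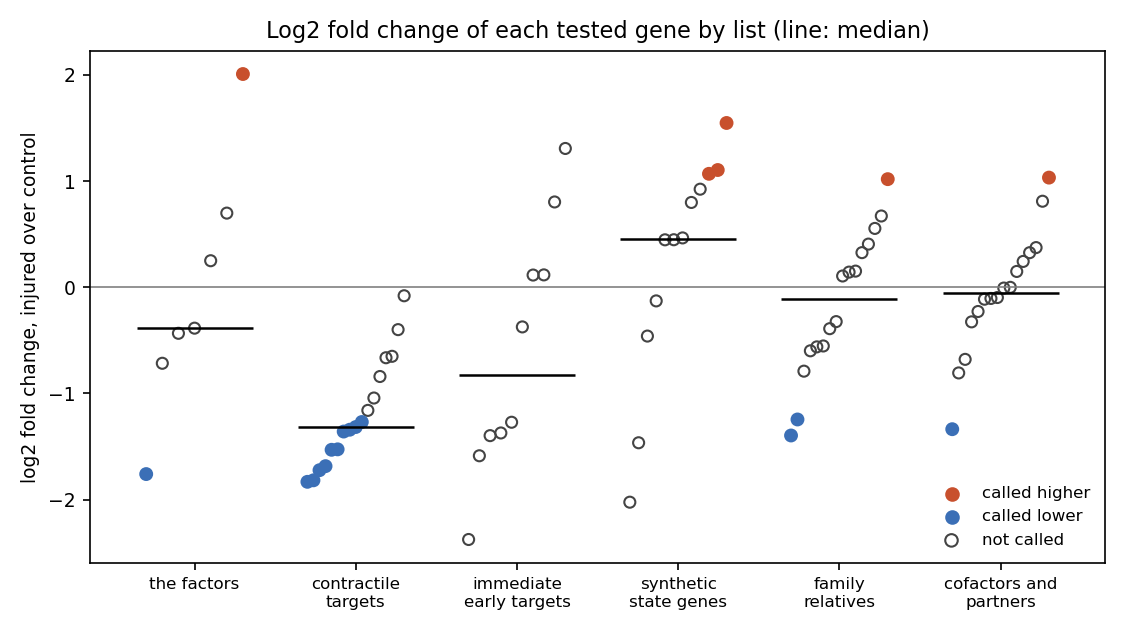
Each point is the log2 fold change (injured over control, y axis) of 1 tested gene, by list, in blue or red where the gene was called lower or higher and open where it was not, with a line at the median of each list. All 17 contractile genes lie below 0, with a median of -1.32, and Klf5 and Myocd lie at the ends of the factors.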

How the data were processed

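mRNA of 4 injured and 4 contralateral control carotid arteries of rats was analysed. The authors deposited raw read counts per gene symbol, without normalization. Their processing notes name HISAT2 2.0.4. The counting tool, genome build and strand setting are not given in the sources used here, so overlapping or antisense genes are uncertain, and nearly all genes of chromosome X carry no counts. The members and the gene lists were chosen with earlier results of these data known.

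The filterByExpr function of edgeR 4.0.16 (R 4.3.3) kept 14359 of 37209 genes, and the groups were compared by the quasi-likelihood test with TMM scaling and no covariate. Calls needed an FDR below 0.05 together with a change of over 2-fold, as in the paper. The standard error was the log2 fold change divided by the root of the F statistic. DESeq2 1.42.0, which gave 16469 genes an adjusted p, was an alternative, since the paper used DESeq. Further alternatives were other scaling factors, filters and thresholds, the replicate number as a block, and each artery left out. Control arteries came from the same animals as injured ones, the labels do not say which belong together, and the tests treat all 8 as independent. That arteries of a group are of separate animals is not stated, so p-values measure the spread between these samples. Log2 CPM used a prior count of 2 and ratios one of 0.5, and 3 ratios were tested by exact permutation over 70 relabellings. On simulated data in which 200 genes had a 4-fold change, 70% of these were found by edgeR (14129 genes tested), 56.5% with the block and 88.5% by DESeq2 (14308 genes tested), with 3, 8 and 50 false calls.

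Named genes are the 10 factors, the called genes of each list (in a list with over 6 called, the 3 lowest and 3 highest of them; with none called, the 2 lowest and 2 highest) and the 2 genes most correlated with each called factor. The values of 1 gene of the synthetic state list are not reported here. Promoters and miRNAs are from RefSeq, GRCr8.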

Additional observations from a re-analysis of the deposited data

Results flagged for a closer look

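Among 22 groups of 4 arteries examined (CPM of the factors and the log2 ratios), 3 passed Dixon's test at the 95% level, which divides the distance of an extreme artery from its neighbour by the range of the group. Chance gives about 1 in 20 groups, here 1.1. For Myocd, injured artery 2 gave 0.921, with 78.8 CPM against 45.6 CPM in the nearest injured artery. For Mef2c, control artery 4 gave 0.915, with 41.5 CPM against 81.7 CPM in the nearest control. For the log2 ratio of Myocd to the mean of the contractile genes, control artery 2 gave 0.901, at -2.69 against -3.56 in the nearest control.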

How the results depend on the processing

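Klf5 kept its direction and its call in every alternative run, and Myocd kept its direction in all. Myocd lost its call in 6 of 8 fits with one artery left out (log2 fold change -2.04 to -1.34) and when tested against a fold change of 2. The other 5 tested factors kept their direction and stayed uncalled. With library totals only, the median log2 fold change of all genes shifted by 0.175, and Srf, Gata6 and Klf4 were at -0.19, -0.24 and -0.52, Mef2c at 0.44, and Twist1 at 0.89 (edgeR adjusted p = 0.0467, fold change under 2).

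The number of factors called was 2, 1 against a fold change of 2, and 1 to 3 with one artery left out. All genes called numbered 1562, and 1007 with at least 10 counts in every sample, 2468 with the FDR alone, 661 against a fold change of 2 and 1142 to 2398 with one artery left out. Against a fold change of 2, 0 contractile, synthetic state, relative and cofactor genes were called. With the FDR alone, 5 relatives and 4 cofactors were called, and DESeq2 called 5 synthetic state genes, 3 higher and 2 lower. The number of relatives called lower was 1, not 2, with upper-quartile factors, library totals or the block. With one artery left out, the calls ranged from 2 to 13 contractile, 0 to 1 immediate early, 1 to 4 synthetic state, 1 to 3 relative and 0 to 2 cofactor genes. The cause was not tested.

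The labels give both groups the numbers 1 to 4. Deviations from the group mean had correlations of 0.301, 0.45, -0.52 and -0.416 between arteries 1, 2, 3 and 4 of either group. These cannot decide whether equal numbers are pairs, because no values for arteries of unequal numbers stand beside them. Sympathetic neuron markers, high in single arteries, summed to 6305 CPM in control artery 4 and 13.8 CPM in injured artery 4. In injured artery 3 they summed to 1066 CPM. Their part in these correlations was not tested. The numbers were not taken as pairs because no label ties a number to an animal. With the replicate block, Klf5 was at 2.08 and Myocd at -1.61 (edgeR adjusted p = 0.0167 and 0.0383), both still called. Under it 3 contractile genes (Actg2, Cnn1 and Synpo2) and 2 immediate early genes (Fosb at -2.73 and Dusp1 at -1.47) were called lower, as were 2 of the synthetic state, beside 2 higher, and 0 cofactors were called. In the sign-flip test with the replicate block, the log2 ratio of Klf5 to Klf4 differed by 2.70, that of Klf4 to Myocd by 0.96 and that of Myocd to the contractile mean by -0.49, each with an exact p of 0.125, the smallest that 4 differences allow. With one artery left out, the first 2 of these differed by 2.30 to 3.28 and by 0.76 to 1.15. Each time the exact permutation p was 0.0571, again the smallest possible, so these tests say nothing about stability. The ratio of Myocd to the contractile mean then differed by -0.67 to -0.26, with an exact permutation p of 0.0571 to 0.4. The planned ratio of Elk1 to Myocd was not run, because Elk1 is listed at 0. Tcf21, at up to 5 counts in a control, is limited by depth.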

Other observations

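The table also lists the hairpin genes Mir143 and Mir145, whose miRNAs are known to be driven by Srf and myocardin and to target Klf4 and Klf5 among others. They were picked after the values were seen. The counts are reads at the hairpin genes in an mRNA library and not levels of the mature miRNAs, of which the main arms are printed with the seed (bases 2 to 8) in capitals, from RefSeq, GRCr8.
rno-miR-143-3p: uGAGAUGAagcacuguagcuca
rno-miR-145-5p: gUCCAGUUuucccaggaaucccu
The seeds differ. Mir143 was at 29.9, 12.8, 19.3 and 8.48 CPM in control arteries 1 to 4 and at 16.9, 7.91, 4.27 and 8.26 CPM in injured arteries 1 to 4, so the groups overlapped. Its log2 fold change was -0.91 (SE 0.50, edgeR adjusted p = 0.256) and -1.15 without control artery 4 (edgeR adjusted p = 0.0927). Mir145 was at 20.2, 11.5, 14.4 and 7.44 CPM in control arteries 1 to 4 and at 16.7, 7.69, 7.19 and 7.94 CPM in injured arteries 1 to 4. Its log2 fold change was -0.44 (SE 0.38, edgeR adjusted p = 0.479) and -0.64 without control artery 4 (edgeR adjusted p = 0.196). Neither was called.

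Of the other marker lists, all 6 proliferation genes were called higher, against 8.31% of all genes tested. Without control artery 4, 5 were called higher, against 12.3%, and Bub1, at 0.93, was not. The summed CPM of the 6 was 8.06 to 16.3 in the controls and 76.7 to 124 after injury. Among endothelial markers, Vwf was called lower at -1.65 and Cdh5 and Kdr higher at 1.06 and 2.03. Over all genes tested, 2.57% were called lower and 8.31% higher. The median of the 7 markers was 0.58. Without control artery 4, Vwf and Kdr kept their calls, and Cdh5, at 0.98, was not called. The endothelial markers summed to 836 to 2262 CPM in the controls and 769 to 1100 CPM after injury. In the same order, T cell markers summed to 1.08 to 6.64 and 7.64 to 19, Schwann cell markers to 54.6 to 613 and 254 to 1156, and adipocyte markers to 80.3 to 775 and 118 to 304. Sympathetic neuron markers reached 1066 CPM in injured artery 3 and 87.2 CPM in injured artery 1.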
